A study of Mus musculus with 6 samples.

Results

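The proteins of the small (40S) subunit of the cytosolic ribosome were followed through the mRNA levels of 33 genes in HSCs from mouse BM. The genes were chosen by symbol, with earlier results of these data known. The rule took every row named Rps followed by a number and optional letters, plus Rpsa, with S6 kinases and pseudogenes left out. Each library had 21878 deposited rows, and 33 of them met this rule. Of these, 14 encode proteins of the head of the subunit, 17 encode proteins of its body and platform, and 2 (Rps27l and Rps27rt) are copies similar to Rps27. HSCs were sorted as CD34-Flk2-Lineage-Sca1+c-Kit+ BM cells of WT mice, of which one group was the vehicle-treated control and the other had received IGF1. Each group had 3 RNA-seq libraries. Per the study's methods, IGF1 was recombinant mouse protein given once under the skin at 200 µg/kg, and cells were taken at day 1. The text on RNA extraction in the labels speaks of IR rather than IGF1, whereas the treatment labels name IGF1, which was followed here. The labels give no sex, age or pooling of the mice, and nothing says that the libraries of a group came from separate animals, so the p-values below measure only the spread between these libraries, which may be technical.

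The 40S subunit binds the mRNA and the initiator tRNA and decodes the message, and its head, body and platform close around the mRNA channel. Its proteins are made in near-equal numbers, one of each per subunit, and are assembled on ribosomal RNA in the nucleolus. Their mRNAs are abundant and short and carry a terminal oligopyrimidine (TOP) tract at the 5′ end, through which mTOR, a kinase downstream of IGF1, controls their translation. HSCs make protein at a low rate, and inherited loss of one copy of several 40S protein genes causes Diamond-Blackfan anemia, a failure of red cell production. mRNA level is what was measured here, and translation was not.

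Start regions are shown first for the genes that the results turn on, with 60 bases before and 20 bases from the annotated start, as given by RefSeq for GRCm38.p6. Rps7 is shown as a gene called higher, Rps12 and Rps21 for the largest differences, Rps27l for the smallest, and Rps27 with Rps27rt as a pair of near-identical transcripts. Capitals mark CCGGAAG, a motif of ETS type, on either strand (CTTCCGG on the other), and the pyrimidine stretches CTTTCC and CTTTTC on the sense strand.
Rps7 (chr12:28635934-28636013, minus strand): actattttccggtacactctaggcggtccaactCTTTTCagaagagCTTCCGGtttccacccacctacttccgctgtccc
Rps12 (chr10:23787190-23787269, minus strand): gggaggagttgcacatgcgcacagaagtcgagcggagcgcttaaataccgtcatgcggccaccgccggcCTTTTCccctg
Rps21 (chr2:180257319-180257398, plus strand): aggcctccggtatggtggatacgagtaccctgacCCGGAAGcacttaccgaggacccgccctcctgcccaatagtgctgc
Rps27 (chr3:90213629-90213708, minus strand): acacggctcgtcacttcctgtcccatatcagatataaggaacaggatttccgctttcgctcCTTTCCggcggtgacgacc
Rps27rt (chr9:114982720-114982799, minus strand): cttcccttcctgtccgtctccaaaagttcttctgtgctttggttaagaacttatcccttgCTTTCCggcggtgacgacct
Rps27l (chr9:66946026-66946105, plus strand): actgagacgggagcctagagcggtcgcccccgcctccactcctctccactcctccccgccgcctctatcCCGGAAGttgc

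The windows of Rps27 and Rps27rt share one unbroken run of 19 bases, which lies at their 3′ end and begins with the pyrimidine stretch, while the bases before it differ. Over the wider RefSeq windows of 300 bases, 25 of the 33 genes had an entry. CCGGAAG occurred on either strand in 11 of these 25 windows (44%), against 9.12% of all 27025 windows of the same length. CTTTCC or CTTTTC on the sense strand occurred in 10 of 25 (40%), against 23.2% of all windows. The motif AAGATGG of YY1 type was found in 20% against 6.48%, GGGCGG of Sp1 type in 52% against 35.9%, and TATAAA in 8% against 14.2%, each on either strand. None of these motifs lies inside another, and a match describes letters, not binding of a factor. Among those without an entry were Rps14, Rps20, Rps27a and Rps29.

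The genes lie on 13 chromosomes, with 9 on chromosome 7 and 4 on chromosome 17. On GRCm38, Rps7 spans chr12:28630854-28635953 and Rps29 chr12:69157722-69159186, both on the minus strand. Rps12 spans chr10:23785183-23787275 on the minus strand and Rps21 chr2:180257377-180258445 on the plus strand.

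Levels are given in FPKM, which counts fragments per kilobase of a gene and per unit of sequencing depth, and each library held between 11296098 and 16019334 reads on listed genes, on an approximate scale. Every one of the 33 genes was expressed, with between 306 and 64391 reads per gene and library, and all passed the filter of at least 1 FPKM in at least 3 libraries. At these counts, sampling of reads adds little error, but depth says nothing about the spread between animals.

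One control library stood apart from the others, and whether its label or origin is right cannot be told from these data. In the 33 genes, control replicates 1 and 3 were within 0.12 of each other on the log2 scale, and the IGF1 libraries within 0.24. In recovered reads the chi-square per degree of freedom over all genes, where 1 is sampling noise alone, was 1.52 between control replicates 1 and 3 and 1.70 to 1.90 between pairs of IGF1 libraries. Over the 33 genes alone it was 1.51 between those controls and 5.38 to 17.7 between pairs of IGF1 libraries, so the proportions of the 33 genes differed between IGF1 libraries by more than sampling noise. Control replicate 2 was over 2-fold above control replicate 1 in 33 of 33 genes and over 2-fold from an IGF1 library in 0 of 33. In each of the 33 genes it lay above both other controls and below every IGF1 library, as it did in 18.7% of all genes tested. On the log2 scale it had covered between 65.9% and 97.9% of the distance from the other controls to the IGF1 libraries, with a median of 81.8%. Each result is therefore given with and without this library.

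Markers of other cells differed between the libraries, some in the same pattern. The summed FPKM of 11 neutrophil and monocyte markers was 3620 to 3670 in control replicates 1 and 3, 5800 in control replicate 2 and 5820 to 5860 in the IGF1 libraries. The 7 B cell markers summed to 90.7 to 91.7, 296 and 295 to 311 FPKM in the same order, and the 7 T and NK cell markers to 360 to 372, 780 and 770 to 790 FPKM. In all 3 lists control replicate 2 sat with the IGF1 libraries. Of these lists, 10 of 11, 4 of 7 and 2 of 7 markers were at 1 FPKM or more in every library, so a sum can rest on few genes. For 6 megakaryocyte markers the sums were 57.5 to 58.0, 77.1 and 96.4 to 107 FPKM, and for 8 erythroid markers 42.0 to 45.2, 114 and 56.9 to 63.0 FPKM. The 6 stromal and endothelial markers had 32.8 to 35.4, 17.9 and 21.6 to 22.7 FPKM. Control replicate 2 was intermediate in the megakaryocyte list, highest in the erythroid list and lowest in the stromal and endothelial list. Here 4 of 6, 7 of 8 and 1 of 6 markers were at 1 FPKM or more in every library. No gene of any list was at 0 in all libraries, although Cd3e, which defines T cells, stayed between 0 and 0.206 FPKM. Elane, a neutrophil granule protease, was at 92.8, 576 and 92.4 FPKM in control replicates 1, 2 and 3 and at 692 to 709 in the IGF1 libraries. Other markers of that list differed from it. Mpo, another granule enzyme, was at 1670, 1610 and 1700 FPKM in controls and 1650 to 1660 with IGF1, and Itgam was lower with IGF1, at 7.36, 4.50 and 7.96 against 4.46 to 4.84. Of 14 HSC markers 7 were at 1 FPKM or more in every library, with sums of 502, 728 and 516 FPKM in controls and 466 to 483 with IGF1. Kit, a receptor used in the sort, was at 105, 31.4 and 104 FPKM in controls against 24.2 to 24.6 in the IGF1 libraries. Ly6a, which encodes Sca1 and was also used in the sort, went the other way, at 219, 615 and 231 FPKM in controls against 374 to 387. Procr was at 11.5, 18.7 and 12.9 FPKM in controls against 13.4 to 15.3. Cd34 mRNA was at 640, 265 and 634 FPKM in controls against 230 to 238 in the IGF1 libraries. Flt3 mRNA, which encodes Flk2, went the other way, at 117, 172 and 117 FPKM in controls against 183 to 188. Both transcripts were thus present in cells sorted as negative for the proteins. The part of these cells in the results was not tested, and in bulk samples a change in the makeup of the cells and a change of RNA per cell cannot be told apart.

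The comparison of IGF1 with control libraries asks whether 40S protein mRNAs changed with transient IGF1 stimulation. All 33 genes had a higher fitted level in the IGF1 libraries, where 40.4% of all 10449 genes tested did, and in all 33 the lowest IGF1 library was above the highest control library (21.9% of all genes, while 37.4% were lower without overlap). The median log2 fold change of the 33 genes was 1.64, while that of all genes tested was -0.18. Of the 33 genes, 32 exceeded a 2-fold difference (6.91% of all genes), and the lowest of the 33 lay at the 91.2 percentile of all genes tested. With the added requirement of an adjusted p under 0.05 from limma, 2 genes were called higher, Rps7 and Rps29, against 1.98% of all genes called higher and 4.63% called lower. None of the 33 was called lower. Of the 33, 32 had an unadjusted p under 0.05, as did 53.4% of all genes, and the adjusted p ranged from 0.0459 to 0.0980.

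Leaving out control replicate 2 brought all 33 genes past both thresholds, against 12.3% of all genes called higher and 20.6% called lower. The median log2 fold change was then 2.25, with a range of 1.32 to 3.58 and a highest adjusted p of 1.466e-10 from limma. The mean of the IGF1 libraries was 2.51- to 12.1-fold that of control replicates 1 and 3, with a median of 4.77-fold. Set against control replicate 2 alone it was 1.019- to 1.63-fold, with a median of 1.34-fold.

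**Figure D1:**
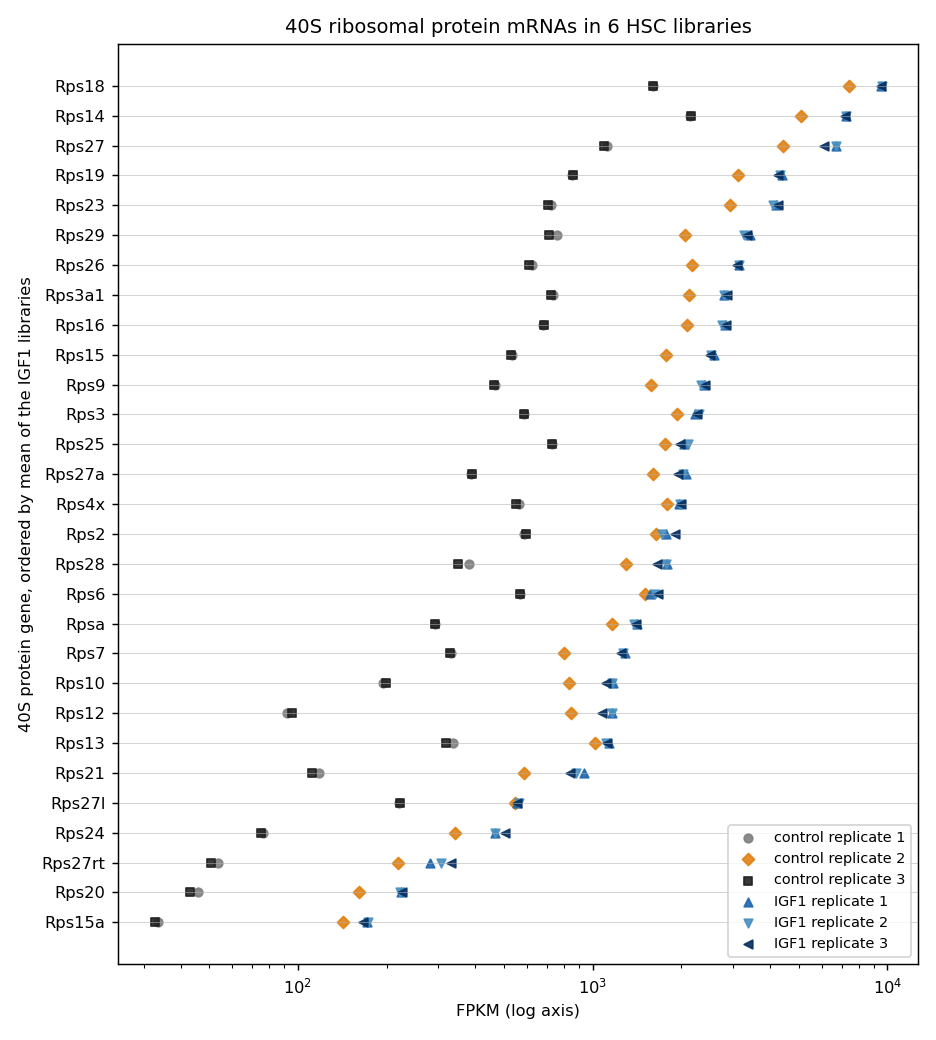
FPKM (log axis) of 29 of the 33 genes in each library, with genes ordered by the mean of the IGF1 libraries. Control replicates 1 and 3 lie together at the left, the IGF1 libraries lie together at the right, and control replicate 2 lies between them in all 29 and nearer to the IGF1 libraries.

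Rps7, a protein of the body that can also bind the p53 regulator Mdm2, was one of the 2 genes called. Its level was 331, 803 and 329 FPKM in controls, in the order of replicates 1, 2 and 3, against 1290, 1270 and 1253 FPKM with IGF1. Its log2 fold change was 1.52 (standard error 0.38, adjusted p = 0.0459 from limma), and 1.94 without control replicate 2. Rps29, a zinc-binding protein of the head, had 756, 2054 and 713 FPKM in controls against 3419, 3276 and 3344 FPKM with IGF1. The log2 fold change was 1.69 (standard error 0.45, adjusted p = 0.0487), and 2.19 without control replicate 2. With length and GC trends removed, Rps29 was at 0.69, under 2-fold and not called, while Rps7 stayed called. These 2 genes did not have the largest differences of the 33. They were the ones in which control replicate 2 lay nearest to the other controls, at 65.9% and 67.8% of the distance to the IGF1 libraries, and their standard errors were smaller than that of Rps12.

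The largest difference was in Rps12, a protein of the beak of the head. Rps12 was at 92.2, 842 and 95.7 FPKM in controls against 1163, 1168 and 1075 FPKM with IGF1, which was 12.1-fold control replicates 1 and 3 and 1.35-fold control replicate 2. The log2 fold change was 2.53 (standard error 0.87, adjusted p = 0.0683), and without control replicate 2 it was 3.58 (standard error 0.04). Rps12 had both the largest difference and the largest standard error, with control replicate 2 at 8.97-fold the mean of the other controls. Of the 31-base words of its transcript, 90.4% also occur in transcripts of other genes, so its level is uncertain.

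Rps21, a neighbour of Rpsa in the subunit, came next. It had 118, 586 and 112 FPKM in controls against 937, 875 and 841 FPKM with IGF1 (log2 fold change 2.15, standard error 0.65, adjusted p = 0.0565). Rps24, a protein of the body, had 76.2, 342 and 74.8 FPKM in controls against 466, 467 and 504 FPKM with IGF1 (1.93, standard error 0.60, adjusted p = 0.0588). Both were low in control replicates 1 and 3 and several-fold higher in the other 4 libraries. Rps23, which sits at the decoding centre, had 724, 2922 and 705 FPKM in controls against 4178, 4102 and 4255 FPKM with IGF1 (1.87, standard error 0.59, adjusted p = 0.0603). Rps10, a beak protein that is ubiquitinated when ribosomes collide, had 194, 833 and 199 FPKM in controls against 1173, 1160 and 1114 FPKM with IGF1 (1.85, standard error 0.58, adjusted p = 0.0597). None of these genes was called with all libraries. Without control replicate 2 their log2 fold changes were 2.93, 2.65, 2.55 and 2.54, each called.

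Rps27l, Rps6 and Rps25 were among the smallest differences. Rps27l, the copy of Rps27 known as a p53 target, had 221, 546 and 223 FPKM in controls against 554, 562 and 554 FPKM with IGF1, so that control replicate 2 was close to the IGF1 libraries. On the log2 scale it differed by 0.89 (standard error 0.37, adjusted p = 0.0980), which made it the only gene of the 33 under 2-fold. Rps6, the substrate of the S6 kinases downstream of mTOR, had 566, 1507 and 565 FPKM in controls against 1562, 1627 and 1662 FPKM with IGF1 (1.04, standard error 0.42, adjusted p = 0.0903). For Rps6, control replicate 2 stood at 93.4% of the distance to the IGF1 libraries. Rps25, a head protein used in initiation from viral internal entry sites, had 729, 1756 and 726 FPKM in controls against 2043, 2108 and 1979 FPKM with IGF1 (1.07, adjusted p = 0.0762). In all of these the levels of control replicate 2 were close to those of the IGF1 libraries. Leaving it out gave log2 fold changes of 1.32 to 1.51, each called.

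**Figure D2:**
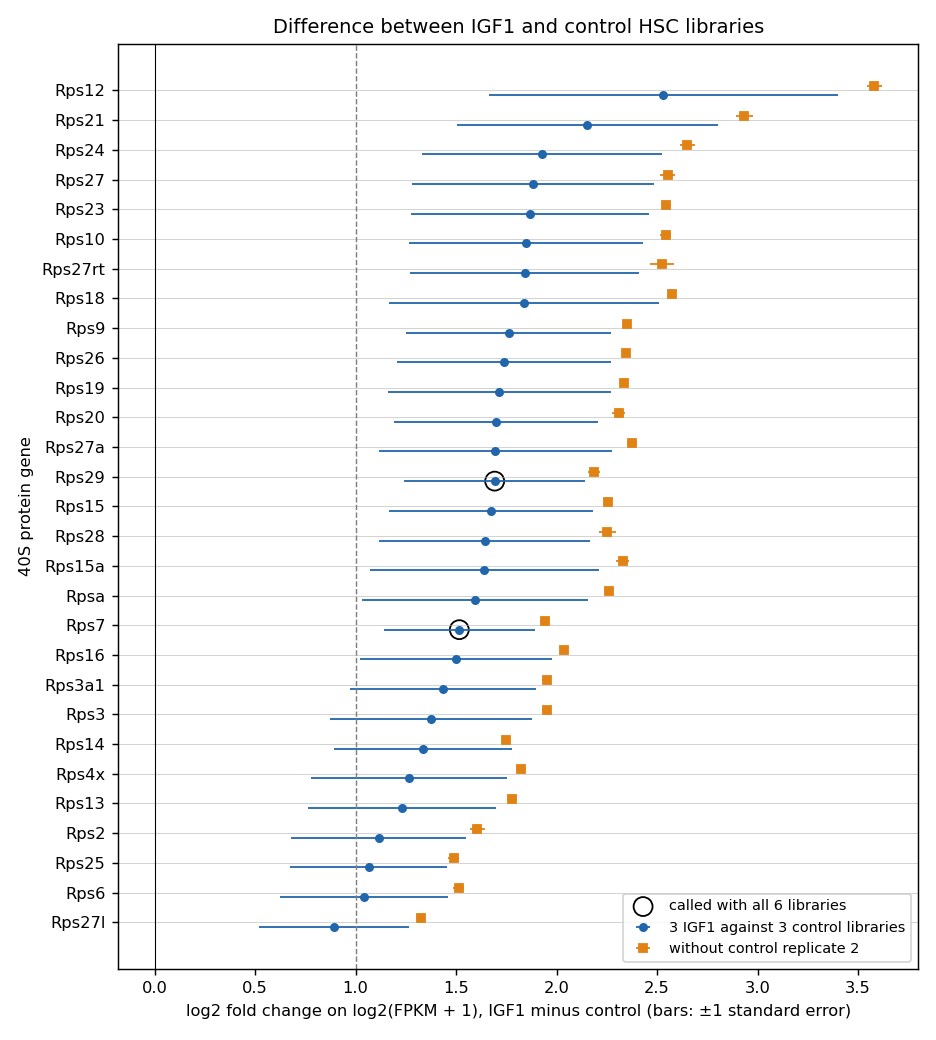
Log2 fold change (IGF1 minus control, on log2(FPKM + 1)) of each gene with bars of 1 standard error, for all 6 libraries (circles) and without control replicate 2 (squares). Of the 33 genes 29 are drawn; all of these lie above 0 in both fits, 28 lie past the dashed line of a 2-fold difference with all libraries, the 2 called genes are ringed, and the standard errors shrink once control replicate 2 is left out.

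Genes with a known role in blood disease or outside the ribosome had differences within the same range. Rps19, the head protein most often mutated in Diamond-Blackfan anemia, had 851, 3125 and 861 FPKM in controls against 4393, 4325 and 4273 FPKM with IGF1 (log2 fold change 1.72, adjusted p = 0.0617). The 10 genes of the 33 known in that anemia had log2 fold changes of 1.52 to 1.93. Their median was 1.70, beside 1.64 over all 33. Of the 10, 2 (Rps7 and Rps29) were called, against 1.98% of all genes called higher. Of those 10 genes, Rps10, Rps24 and Rps27 were among the 6 largest differences of the 33, and none was among the 4 smallest. Whether the 10 genes differed from the rest of the 33 was not tested. Rps14, whose loss underlies the anemia of the 5q- syndrome, had 2133, 5087 and 2159 FPKM in controls against 7245, 7213 and 7208 FPKM with IGF1 (1.34, adjusted p = 0.0641). Rpsa, also known as the laminin receptor precursor and mutated in congenital asplenia, had 292, 1167 and 292 FPKM in controls against 1418, 1381 and 1407 FPKM with IGF1 (1.59, adjusted p = 0.0716). In both, control replicates 1 and 3 were nearly equal and control replicate 2 was below the IGF1 libraries. Rps27a, which is made as a fusion with ubiquitin, had 386, 1597 and 389 FPKM in controls against 2071, 2019 and 1953 FPKM with IGF1 (1.70, adjusted p = 0.0682). Rps4x, encoded on the X chromosome, had 565, 1784 and 551 FPKM in controls against 1960, 1977 and 2000 FPKM with IGF1 (1.27, adjusted p = 0.0833). The groups of libraries did not overlap in any of them, and each was called without control replicate 2. Both held for all 33 genes, against 21.9% of all genes higher without overlap and 12.3% called higher without that library.

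By position in the subunit, the 14 head proteins had a median difference of 1.68 on the log2 scale and 1 called, and the 17 proteins of the body and platform a median of 1.52 and 1 called. Without control replicate 2 the medians were 2.25 and 1.95, with every gene called, against 12.3% of all genes called higher. The difference between the positions was not tested. Fau and Rack1 are 40S proteins whose symbols fall outside the selection. Both were higher in every IGF1 library than in any control, as were 21.9% of all genes. Fau, a ubiquitin-like protein fused to the 40S protein S30, had 159, 694 and 156 FPKM in controls against 1183, 1105 and 1124 FPKM with IGF1 (2.13, adjusted p = 0.0520). Rack1, a scaffold protein on the head, had 642, 1513 and 658 FPKM in controls against 1658, 1660 and 1643 FPKM with IGF1 (0.94, adjusted p = 0.0875). Neither was called with all libraries, and both were called without control replicate 2.

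Rps27 and its copies show how far sequence limits the values. Rps27, a zinc-binding protein of the platform, had 1120, 4439 and 1089 FPKM in controls against 6687, 6696 and 6091 FPKM with IGF1 (log2 fold change 1.88, standard error 0.60, adjusted p = 0.0610). Rps27rt, a copy whose locus spans 374 bases, the length of its transcript, had 53.6, 219 and 50.8 FPKM in controls against 280, 305 and 331 FPKM with IGF1 (1.84, adjusted p = 0.0582). Of the 31-base words of the Rps27 transcript, 98.7% also occur in transcripts of other genes, all of them in Rps27rt, and 92.7% of those of Rps27rt occur elsewhere, so the level of the copy is uncertain. Rps27l shared 29.6% of its words with other genes. Over the 33 genes this share ran from 2.6% to 98.7%. The called genes Rps7 and Rps29 had shares of 64.3% and 39.2%. This share exceeded 50% in 21 genes, whose levels are uncertain in the same way. It had a Pearson correlation of 0.24 and a Spearman correlation of 0.20 with the log2 fold change over the 33 genes, which is a description across genes that share libraries. Rps27rt was chosen for this comparison after its values were seen.

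Between genes the levels spanned a wide range although the proteins are needed in equal numbers. The highest FPKM was 52.3- to 66.1-fold the lowest within a library. Rps14 was highest in control replicates 1 and 3, and Rps18 was highest in control replicate 2 and the IGF1 libraries, at 9528 to 9597 FPKM in the latter. The lowest was Rps15a in every library, at 33.6, 142 and 32.7 FPKM in controls against 167 to 173 FPKM with IGF1. The low level of Rps15a goes with the gene length used for the deposited values. The step between its values implied a length of 5136 bases, 8.03 times the 640 bases of its reference transcript, and the same ratio was 7.33 for Rps24 and 5.92 for Rps20. Scaled to the reference transcript, Rps15a was at 262 to 1385 FPKM, and Rps27rt was then the lowest in every library, at 50.8 to 331 FPKM. The order of the genes hardly moved between libraries. The rank correlation with IGF1 replicate 1 was 0.932, 0.973 and 0.919 for control replicates 1, 2 and 3 and 0.996 to 0.999 for the other IGF1 libraries. Rps15a, Rps18 and Rps20 were named for their levels after these were seen.

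As a group, the 33 genes held 4.05%, 9.84% and 4.02% of the summed FPKM in control replicates 1, 2 and 3 and 12.14%, 12.13% and 12.03% in the IGF1 libraries. The mean was 5.97% ± 3.35 (SD, n = 3) in controls and 12.1% ± 0.06 (SD, n = 3) with IGF1, a difference of 6.13 percentage points (2-sided exact permutation test, p = 0.1, which is the lowest value possible with 3 libraries a group). In reads recovered from the values, which are not scaled to gene length, the share was 1.495%, 4.91% and 1.487% in the controls and 6.33% to 6.35% in the IGF1 libraries. The summed FPKM of all other genes was 1.17-fold that of control replicates 1 and 3 in the IGF1 libraries and 1.18-fold in control replicate 2, while that of the 33 genes was 4.37-fold and 3.32-fold.

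The proteins of the large (60S) subunit, 51 rows of which 50 could be tested, showed the same pattern over libraries. Their share was 4.70%, 11.2% and 4.68% of the summed FPKM in controls against 14.1% to 14.4% in the IGF1 libraries. The 40S genes made up 46.3%, 46.8% and 46.2% of the FPKM of both subunits in the controls and 45.8%, 46.2% and 45.7% in the IGF1 libraries. This differed by -0.52 percentage points (46.4% ± 0.35 against 45.9% ± 0.29, SD, n = 3, 2-sided exact permutation test, p = 0.2), and the libraries of the groups overlapped. In recovered reads the difference had the other sign, 0.51 percentage points (p = 0.4, same exact test).

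**Figure D3:**
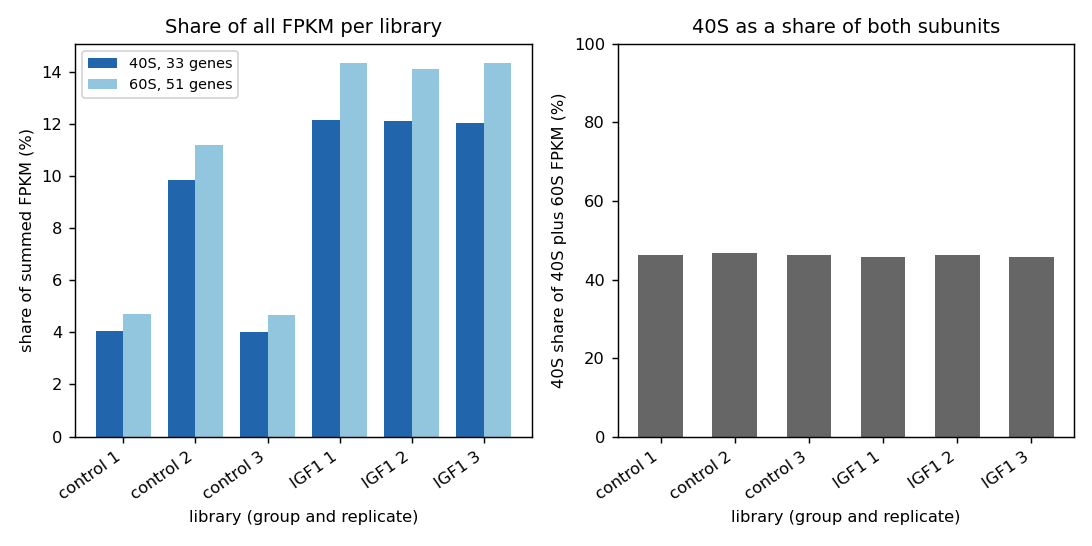
Left, the share of the summed FPKM (%) held by the 40S and 60S genes in each library; right, the 40S genes as a share (%) of both subunits. Bars are single libraries, so no error is drawn; the 40S share is 4.05% and 4.02% in control replicates 1 and 3, 9.84% in control replicate 2 and 12.03% to 12.14% in the IGF1 libraries, while the 40S share of both subunits stays between 45.7% and 46.8%.

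Within the 40S group the genes did not keep their proportions. Against control replicates 1 and 3, 19 genes held a larger share of the summed 40S FPKM with IGF1 and 14 a smaller one. Rps12 went from 0.499% to 1.38% of the group, 2.77-fold, and Rps21 from 0.610% to 1.08%, 1.76-fold. Rps14, the highest in those controls, went from 11.4% to 8.79%, and Rps27l from 1.18% to 0.678%. Control replicate 2 lay on the same side as the IGF1 libraries in 31 of the 33 genes, and there Rps12 stood at 2.70-fold its share in the other controls. Rps29 was one of the exceptions, at 0.841-fold its share in control replicate 2 and 1.04-fold in the IGF1 libraries. Head proteins made up 42.9%, 47.1% and 42.8% of the 40S FPKM in controls against 47.1%, 47.2% and 46.8% in the IGF1 libraries (2-sided exact permutation test, p = 0.2), where control replicate 2 overlapped the IGF1 libraries.

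**Figure D4:**
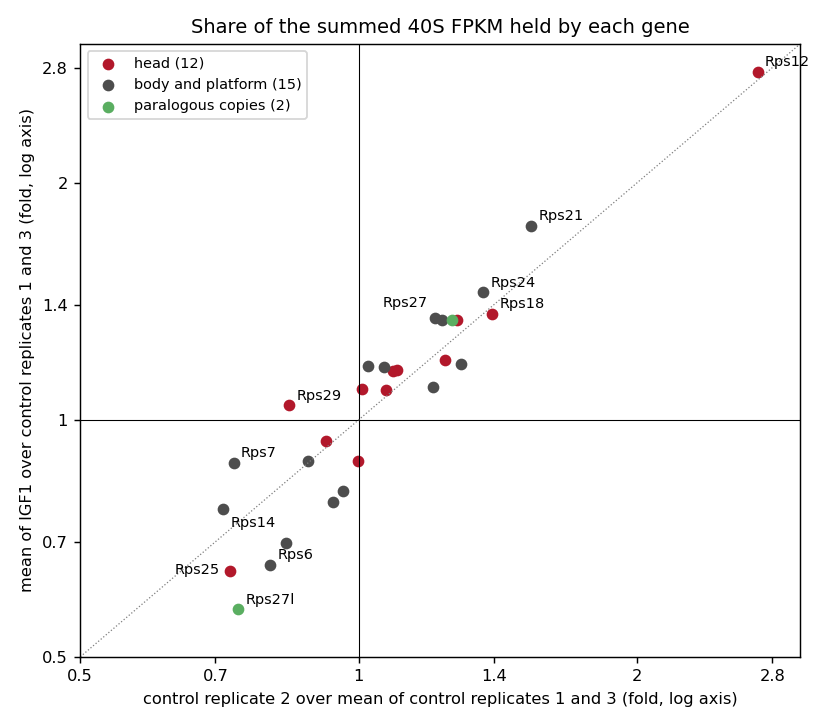
Each point is 1 of 29 genes, placed by how its share of the summed 40S FPKM in control replicate 2 (horizontal) and in the IGF1 libraries (vertical) compares with the mean of control replicates 1 and 3, as folds on log axes; the dotted line marks equality. Points follow the line loosely, and both axes share control replicates 1 and 3. Rps12 is highest on both axes, at 2.70- and 2.77-fold. Rps27l is lowest on the vertical axis, at 0.741- and 0.575-fold, and Rps14 is lowest on the horizontal axis, at 0.713- and 0.770-fold. Rps29, at 0.841- and 1.04-fold, lies on opposite sides of 1.

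Transcript length went with the differences. Among the 33 genes, which have reference transcripts of 345 to 1938 bases, the log2 fold change had a Pearson correlation of -0.42 and a Spearman correlation of -0.50 with the log2 of transcript length, and of -0.13 and -0.08 with the log2 of mean FPKM. With the log2 of the gene length implied by the deposited values, the correlations were weaker, at -0.15 and -0.28. These describe genes that share the same libraries and are not tests. Outside the 33, 3364 genes with transcripts in that range showed a median difference of 0.20 (log2), with 60.2% above 0, and 6928 longer genes a median of -0.34, with 30.1% above 0. At the median length of the 33 genes or shorter, from 345 to 640 bases, 301 other genes that encode no 60S protein had a median of 0.96. Of those 301 genes, 83.1% were above 0 and 47.5% were over 2-fold higher. With the trends on transcript length and GC content removed in each library, the median of the 33 genes was 0.91 and 5 were called higher (Rps3a1, Rps7, Rps16, Rps23 and Rps26), against 1.26% of all genes. The same removal without control replicate 2 left 21 of the 33 called, against 7.44% of all genes. Quantile normalization, which gives every library one distribution of values, left 17 called without that library, against 14.1% of all genes, and 75th percentile scaling 33, against 17.9%. These 3 fits were added after the data were seen. No value here separates length of the transcript from the function of the gene.

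Lists of genes that act on the 40S subunit had lower medians than its proteins. Of 49 assembly factors of the 40S subunit, 0 were called higher and 5 lower, with a median log2 fold change of -0.69 and 41 below 0. Pno1, which acts with Nob1 in the last steps of 40S maturation, had 73.5, 44.7 and 68.1 FPKM in controls against 27.9, 28.1 and 27.9 FPKM with IGF1 (-1.09, standard error 0.20, adjusted p = 0.0355). Here too control replicate 2 was intermediate, in the opposite direction to the 40S proteins. Without that library 24 of the 49 were called lower and 1 higher.

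Among 27 initiation and recycling factors that bind the 40S subunit, 1 was called higher and 2 lower, with a median of 0.00. Eif2s1, the alpha subunit of eIF2 that carries the initiator tRNA complex, had 137, 71.6 and 137 FPKM in controls against 40.9, 44.3 and 42.4 FPKM with IGF1 (-1.36, standard error 0.27, adjusted p = 0.0369). Mcts2, a copy of the recycling factor Mcts1, was low throughout, at 1.56, 2.06 and 1.32 FPKM in controls against 6.67, 4.42 and 8.06 FPKM with IGF1 (1.46, standard error 0.22, adjusted p = 0.0290). In Mcts2, unlike in the 40S proteins, control replicate 2 lay close to the other controls.

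Other mRNAs with a TOP tract, 15 in all with elongation factors among them, had a median of 0.67, with 13 above 0 and 0 called. Regulators of TOP translation and S6 kinases, with 14 genes tested, had a median of -0.28, with 4 above 0 and 0 called. For the small subunit of the mitochondrial ribosome, 29 genes had a median of 0.32, with 20 above 0 and 0 called. With length and GC trends removed the median of these 29 genes was -0.19, so its sign depended on the processing. The 60S proteins had a median of 1.53, with all 50 tested genes above 0 and 3 called higher, and Rpl32l had the smallest adjusted p among these, at 2.32, 6.001 and 2.10 FPKM in controls against 10.1, 10.6 and 8.52 FPKM with IGF1 (1.36, adjusted p = 0.0450). Without control replicate 2, 49 of the 60S genes, 7 of the other TOP mRNAs, 8 of the mitochondrial genes, 4 of the initiation and recycling factors and 1 of the TOP regulators were called higher, and 0, 0, 1, 5 and 3 were called lower. All these counts stand against 1.98% of genes called higher and 4.63% called lower with all libraries, and 12.3% and 20.6% without control replicate 2.

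**Figure D5:**
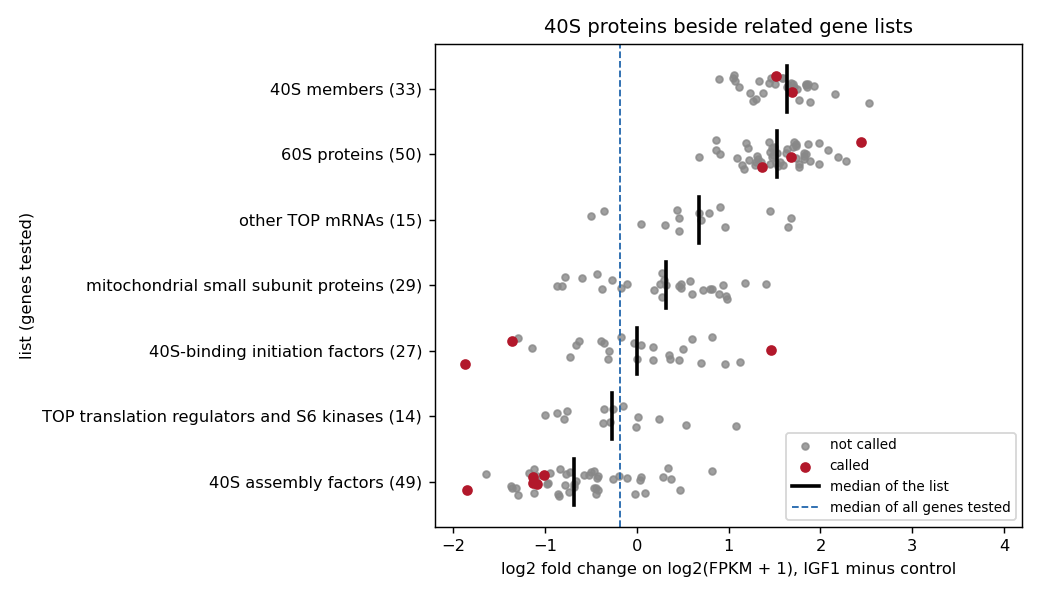
Log2 fold change (IGF1 minus control) of each tested gene in the 40S group and in 6 related lists, with called genes in red, a bar at the median of each list and a dashed line at the median of all genes tested (-0.18). The 40S and 60S proteins lie wholly above 0, with medians of 1.64 and 1.53, and the assembly factors lie mostly below 0, with a median of -0.69.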

How the data were processed

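RNA-seq libraries of sorted BM HSCs were used, 3 per group, prepared with a stranded poly(A) kit per the labels. The submitters' processing notes name fastp, HISAT2, StringTie and the builds GRCm38 and mm10, whereas the study's methods name fastp and RSEM. In the deposited tables each gene symbol has 1 value in a library, with no unit named. The deposited values were taken as FPKM, since within each gene they moved in whole steps. Dividing by these steps gave whole reads (within 0.03) for all 15640 expressed genes, up to a common factor, which was set from reference transcript lengths in 161 genes, Rps26 and Rps29 among them. The scale of depth is approximate. The 10449 genes that reached 1 FPKM in 3 or more libraries were tested with limma 3.58.1 (lmFit, and eBayes with a trend) on log2(FPKM + 1) in R 4.3.3, a scale that understates changes of low genes. Calls needed more than a 2-fold difference together with an adjusted p (Benjamini-Hochberg, over all genes tested) under 0.05. Standard errors are limma's moderated ones. Shares were compared by 2-sided exact permutation tests over libraries.

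The 33 genes and all lists were chosen with earlier results of these data known. Lists were described by counts and medians only. Genes named were those called, the 6 largest and 4 smallest differences, genes with known roles, similar copies, and in each related list the called gene with the smallest adjusted p per direction; others are said to be chosen after their values were seen. Shared 31-base words and lengths came from GENCODE vM21 transcripts (the lowest-numbered transcript with the longest coding sequence), and start windows from RefSeq. The scripts were tested on simulated data. Alternatives were other scalings, pseudocounts and filters, a flat variance prior, the replicate number as a block, each library left out in turn, library weights, removal of length and GC trends, and limma's voom on recovered reads. Deviations of same-numbered libraries were hardly correlated, which cannot exclude a weak pairing. The libraries of irradiated mice that the study discusses were not used here. Some genes are counted but not reported by name or drawn singly here.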

Additional observations from a re-analysis of the deposited data

How the results depend on the processing

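No log2 fold change of the 33 genes was below 0 under any of the 21 alternatives, but the number called higher depended on them. It was 2 with all libraries, and 0 under quantile normalization and without a filter. With 75th percentile scaling, a pseudocount of 5, a minimum of 5 FPKM or voom on recovered reads it was 1, Rps7 and not Rps29. It was 5 with length and GC trends removed, 3 with a flat variance prior (Rps14 in addition), and 33 with library weights (12.2% of all genes were then called higher), which gave control replicate 2 a weight of 0.0137 against 1.90 to 3.64 for the others. Apart from library weights, these settings called 0.632% to 3.82% of all genes higher. Leaving out 1 library gave 0 to 33 genes, 33 without control replicate 2 and 0 without any other library (5 to 9 of the 33 then had an unadjusted p under 0.05 from limma, that is 15.2% to 27.3%, as did 28.5% to 30.7% of all genes, of which 0 were called). With the replicate number as a block, 0 of the 33 and 0 of all genes were called. In that fit 26 of the 33 and 45.9% of all genes had an unadjusted p under 0.05 from limma. Deviations of same-numbered libraries from their group means had correlations of -0.0572, -0.0503 and 0.00567. The distance of control replicate 2 from the other controls enters every control deviation, so these correlations cannot exclude a weaker pairing. Under quantile normalization 20 of the 33 had an unadjusted p under 0.05 (52.0% of all genes), and without a filter 30 (43.4%). Of the alternatives chosen after seeing the data, each without control replicate 2, length and GC removal called 21 genes, quantile normalization 17 and 75th percentile scaling 33, the last with a median log2 fold change of 2.60. The median was 0.76 under quantile normalization and 0.91 with length and GC trends removed, and 1.001 to 2.60 under the others. The median of all genes moved from -0.18 to 0.06 with 75th percentile scaling and to -0.52 with scaling to TPM. The 40S share of the summed FPKM kept its direction in recovered reads, without the copies and without each library. It also did so without the 100 highest genes outside both subunits. The 40S share of both subunits changed sign in recovered reads, where IGF1 minus control was 0.51 percentage points. The cause of these changes was not tested. Depth adds little error to the 33 genes, which had at least 306 reads in every library.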
